A study of Homo sapiens with 40 samples.

Results

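Growth of 10 established diffuse large B-cell lymphoma lines is slowed to very different degrees by GSK126, and the question here is which genes responded to the compound in proportion to that sensitivity. Each line gave 1 value per gene, the log2 fold change (mean of 2 GSK126 arrays minus mean of 2 DMSO arrays). That value was regressed on log10 of the average gIC50 printed in the labels, the growth-inhibitory concentration of GSK126. All 40 of the 40 arrays and all 10 lines entered, and no expression value was used to choose them. Cells were kept for 72 h in 500 nM GSK126 with 0.1% DMSO, or in 0.1% DMSO alone as vehicle, and each line has 2 arrays of either treatment. The titles name these arrays biological replicates, and do not state whether they came from separate cultures. In order of gIC50 the lines were Pfeiffer (EZH2 mutant, 28 nM), WSU-DLCL2 (EZH2 mutant, 134 nM), KARPAS-422 (EZH2 mutant, 232 nM), SU-DHL-10 (EZH2 mutant, 448 nM) and HT (EZH2 wild type, 516 nM). SU-DHL-6 (EZH2 mutant, 582 nM), DB (EZH2 mutant, 861 nM), OCI-LY-19 (EZH2 wild type, 1019 nM), SU-DHL-4 (EZH2 mutant, 4828 nM) and Toledo (EZH2 wild type, 13786 nM) followed. The labels name the genotype only as mutant or wild type. The dose of 500 nM lay above the gIC50 of 4 lines and below that of the other 6 lines.

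EZH2 is the catalytic subunit of Polycomb repressive complex 2 (PRC2), which places methyl groups on lysine 27 of histone H3 at genes kept silent. In germinal centre B cells, the cells from which many of these lymphomas arise, PRC2 holds down genes of differentiation and of cell cycle exit, and mutations that raise its trimethylating activity recur in the lymphomas. GSK126 competes with the methyl donor in the enzyme's active site, so methylation is lost over several rounds of cell division and silenced genes can be transcribed again. A line that slows its growth also lowers the genes of DNA replication and mitosis, which are read under E2F factors and, later in the cycle, under the MuvB and FOXM1 complexes.

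Every array had a trimmed mean signal of 500, which left the array medians free to differ, as they did. All 40 arrays correlated best with another array of their own line (r = 0.982 to 0.989 within a group). The B cell markers CD22, CD79A, CD79B and PAX5 lay above the array median on all arrays, and the summed signal of the 5 markers on the array ranged over 22579 to 52817 on GSK126 arrays and 21033 to 50813 on DMSO arrays. No T and NK cell marker of 11 and no myeloid marker of 8 was above the median on every array, and CD14, ELANE, MPO and S100A9 were above it on none. Summed myeloid signal was 146 to 380 on GSK126 arrays and 145 to 460 on DMSO arrays. Summed T and NK cell marker signal reached further, 554 to 16153 on GSK126 arrays and 361 to 13595 on DMSO arrays, with GNLY and NKG7 above the median on none. Stromal and epithelial markers summed to 770 to 22185 on GSK126 arrays and 732 to 16035 on DMSO arrays. COL1A1 among them and the endothelial marker PECAM1 were above the median on every array, but only by their brightest probe set. The other probe sets were above it on 0 to 8 arrays for COL1A1 and on 1 to 20 arrays for PECAM1. DCN and ACTA2 of the same list were above it on 39 arrays by their brightest probe set. In the slope fit described below, DCN (-0.42 ± 0.12) and COL1A1 (0.24 ± 0.10) had an unadjusted p under 0.05, in opposite directions. Neither passed the adjusted threshold. Of the T and NK cell, myeloid, and erythroid and endothelial markers tested, 0 had such a p. Whether cells other than B cells had a part in the slopes of other genes was not tested. In bulk RNA of this kind, fewer cells in a state and less RNA per cell cannot be told apart.

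The fold change of 1 gene of the 15211 tested (0.00657%) tracked gIC50 at an adjusted p under 0.05 in limma, with Benjamini-Hochberg adjustment over all genes. It was EEF2KMT, the methyltransferase that modifies a lysine of translation elongation factor 2, and its slope was positive, meaning a higher fold change in less sensitive lines. No slope below 0 passed, against 827 genes at an unadjusted p under 0.05 (5.44%) and 804 with a slope above 0 (5.29%), 1631 genes in all (10.7%). With arrays set to equal medians the unadjusted counts were 395 genes below 0 and 1044 above 0, so the balance of directions over all genes depends on the scaling. The slope is given per log10 unit of gIC50, and its standard error had a median of 0.12 over genes. Large slopes were mostly negative: of 289 genes with a slope beyond 0.5 in size, 228 lay below 0, while the median slope of all genes was -0.01.

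EEF2KMT had a log2 fold change of -0.70 in Pfeiffer, -0.03 in WSU-DLCL2 and -0.11 in KARPAS-422, then 0.09 in SU-DHL-10 and 0.23 in HT. It was 0.40 in SU-DHL-6, 0.27 in DB, 0.44 in OCI-LY-19, 0.89 in SU-DHL-4 and 1.28 in Toledo. The lowest value belongs to the most sensitive line and the highest to the least sensitive, with only KARPAS-422 and DB out of order, and the slope was 0.71 ± 0.09 (SE, 10 lines, limma adjusted p = 0.0268). The arrays behind each value were less orderly. On the log2(signal + pseudocount) scale the Pfeiffer arrays read 8.07 and 7.24 under GSK126, against 8.69 and 8.01 under DMSO. The Toledo arrays read 8.51 and 8.02 under GSK126, against 6.44 and 7.52 under DMSO. The Pfeiffer groups overlap and the DMSO arrays of Toledo differ by over 1 log2 unit, and EEF2KMT passed the test within 0 of the 10 lines, where the SE of a fold change was 0.36. Its 1 probe set on the array is of the type (x_at) whose probes may also match related transcripts. The call was lost without Pfeiffer (adjusted p = 0.376), SU-DHL-10 (0.0559), HT (0.0800), SU-DHL-6 (0.0576), DB (0.0624), SU-DHL-4 (0.135) or Toledo (0.297), and without replicate 1 (slope 0.48, adjusted p = 0.348) or replicate 2 (slope 0.94, adjusted p = 0.262) of every line. It was also lost without any 1 of 12 single arrays (adjusted p = 0.0523 to 0.204): Pfeiffer GSK126 2 and DMSO 1, WSU-DLCL2 GSK126 2 and DMSO 2, SU-DHL-6 GSK126 1 and 2, OCI-LY-19 GSK126 1 and 2, SU-DHL-4 GSK126 1 and DMSO 1, and Toledo GSK126 1 and DMSO 1.

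**Figure D1:**
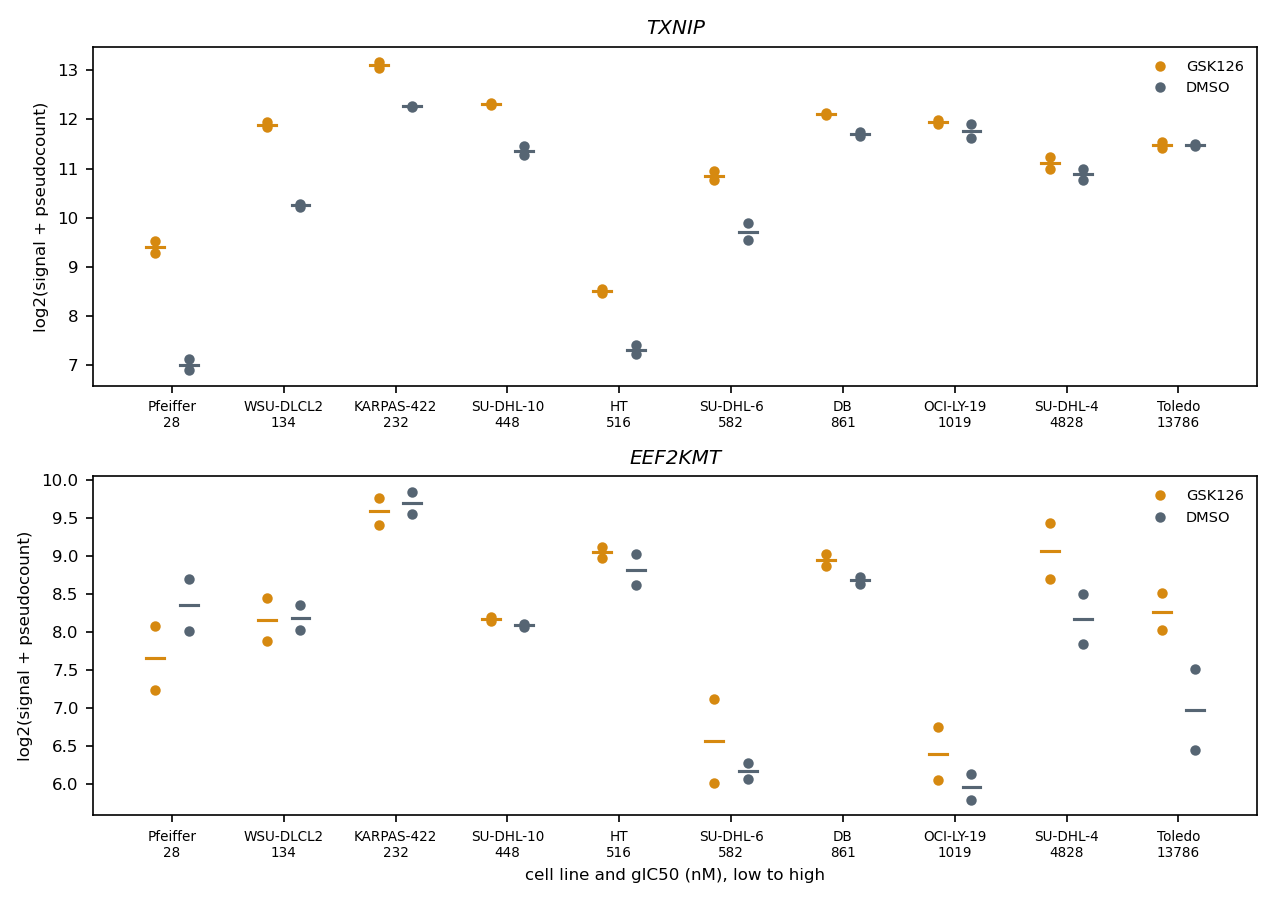
Level of TXNIP (top) and EEF2KMT (bottom) on each array, as log2(signal + pseudocount), by cell line in order of gIC50 (nM), with GSK126 left and DMSO right within each line and a bar at the mean of the 2 arrays. The 2 treatments of TXNIP stand apart in the lines at the left and coincide in Toledo, while the arrays of EEF2KMT scatter within groups.

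TXNIP came next, with a slope in the other direction. It encodes an alpha-arrestin that binds thioredoxin, lowers glucose uptake and slows proliferation in many cells. The log2 fold change was 2.39 in Pfeiffer, 1.64 in WSU-DLCL2 and 0.84 in KARPAS-422, then 0.96 in SU-DHL-10 and 1.18 in HT. It was 1.14 in SU-DHL-6, 0.41 in DB, 0.18 in OCI-LY-19, 0.23 in SU-DHL-4 and -0.01 in Toledo. TXNIP rose by the test within each line in 7 lines, all those with a gIC50 up to 861 nM, and did not pass in the 3 least sensitive lines. Of all genes, 14.6% rose in Pfeiffer, 13.9% in WSU-DLCL2 and 15.5% in KARPAS-422, then 11% in SU-DHL-10, 6.31% in HT, 7.42% in SU-DHL-6, 2.5% in DB, 1.97% in OCI-LY-19, 2.14% in SU-DHL-4 and 0.138% in Toledo. The slope of TXNIP was -0.89 ± 0.13 (SE, 10 lines, limma adjusted p = 0.0648), short of the threshold. The other 2 probe sets of TXNIP had slopes of -0.68 and -0.80, and with the 3 probe sets averaged the gene passed (slope -0.79, adjusted p = 0.0139). It passed too without KARPAS-422 (0.0292) or OCI-LY-19 (0.0431), and without any 1 of 5 single arrays (0.0335 to 0.0488): KARPAS-422 GSK126 1, SU-DHL-6 DMSO 2, OCI-LY-19 DMSO 2, SU-DHL-4 DMSO 2 and Toledo GSK126 2.

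Single arrays of TXNIP kept the treatments well separated where the fold change was large. Pfeiffer read 9.27 and 9.53 under GSK126, against 6.89 and 7.12 under DMSO. HT, a wild type line, read 8.54 and 8.46 under GSK126, against 7.23 and 7.40 under DMSO. Toledo read 11.42 and 11.53 under GSK126, against 11.46 and 11.51 under DMSO, so its groups overlap at a level above anything reached in Pfeiffer or HT. TXNIP levels under DMSO had a slope of 1.24 on log10 gIC50, which did not pass the test (adjusted p = 0.76).

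The promoter of TXNIP is shown because it carries a carbohydrate response element (ChoRE), the site through which MondoA and ChREBP read glucose supply. A pair of CACGNG letters with 5 bases between them, sought on both strands, occurred in 20 of 27305 RefSeq promoters of this length (0.07%), TXNIP among them. The CCAAT box, letters CCAAT on either strand, occurred in 35.7% of them. The window runs over 250 bases before and 50 bases after the annotated start, on the minus strand of chr1:145996530-145996829 (GRCh38.p14, RefSeq), written 5′ to 3′ with matches to both motifs in capitals. A match is a description of the sequence.
TXNIP: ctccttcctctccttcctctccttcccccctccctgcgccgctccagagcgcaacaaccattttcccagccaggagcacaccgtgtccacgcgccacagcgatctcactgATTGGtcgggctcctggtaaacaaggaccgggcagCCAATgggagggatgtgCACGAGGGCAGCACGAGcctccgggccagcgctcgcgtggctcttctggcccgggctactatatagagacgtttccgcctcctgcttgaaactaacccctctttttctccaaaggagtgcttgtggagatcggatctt

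The other 11 genes of lowest p with a negative slope did not pass the adjusted threshold (adjusted p = 0.182 to 0.208). They were UCP2, a mitochondrial carrier, H2BC12, a histone H2B, FGR, a Src family kinase, RCAN3, a regulator of calcineurin, FTX, a long noncoding RNA of the X inactivation centre, and TPRG1L, a protein of synaptic vesicles. PAM, which amidates peptides, TP53I3, a quinone reductase induced by p53, GBGT1, a glycosyltransferase of globoside glycolipids, ATOSA and SPATA20 complete them. Slopes ran over -0.35 for TPRG1L to -0.68 for PAM. All 11 had a positive fold change in Pfeiffer, and 9 of the 11 had their lowest value in Toledo, the exceptions being PAM and ATOSA. The genes were chosen for a negative slope, and Pfeiffer and Toledo are the ends of the gIC50 range. High values in Pfeiffer and low values in Toledo thus follow in large part from the choice.

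RCAN3 had log2 fold changes of 1.42, 1.57, 1.47 and 1.28 in Pfeiffer, WSU-DLCL2, KARPAS-422 and SU-DHL-10, 0.96 in HT, 0.52 in SU-DHL-6, 1.05 in DB, 0.42 in OCI-LY-19, 0.27 in SU-DHL-4 and 0.05 in Toledo (slope -0.63 ± 0.12). The gene rose by the within-line test in the 7 lines with the lowest gIC50 and did not pass in the other 3. On the arrays, RCAN3 in WSU-DLCL2 read 11.53 and 11.47 under GSK126, against 9.89 and 9.96 under DMSO, and in Toledo 9.54 and 9.47 under GSK126, against 9.55 and 9.35 under DMSO. H2BC12 had log2 fold changes of 1.21 in Pfeiffer, 1.25 in WSU-DLCL2 and 0.61 in KARPAS-422, then 0.56 in SU-DHL-10, 0.22 to 0.33 in the next 5 lines and -0.15 in Toledo (slope -0.52 ± 0.09). It too rose by the test in 7 lines. FGR had a fold change of 1.26 in Pfeiffer and -0.79 in Toledo but passed the test within 1 line alone (slope -0.64 ± 0.12).

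**Figure D2:**
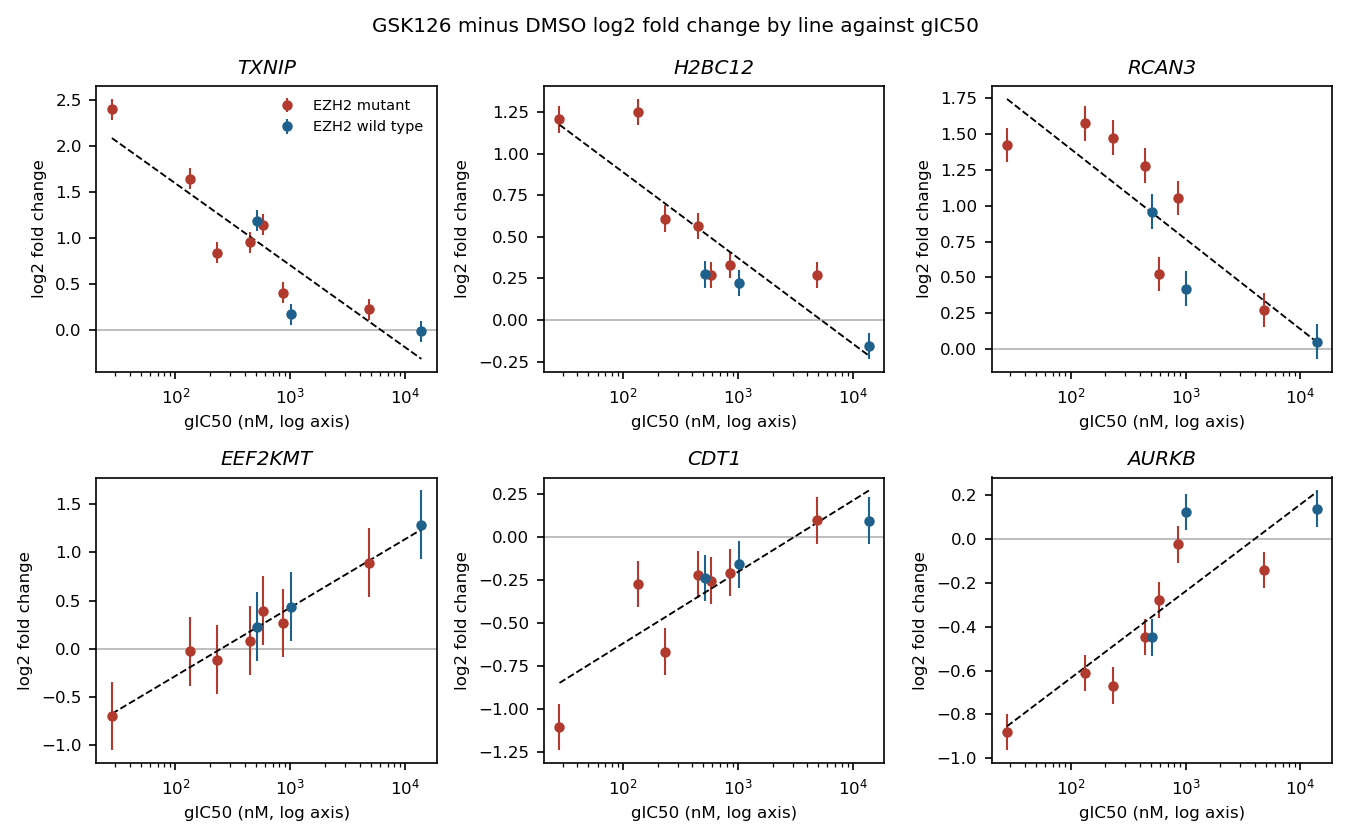
Log2 fold change (GSK126 minus DMSO, points with SE bars of the within-line fit) against gIC50 in nM on a log axis for 6 genes, each point being 1 cell line, mutant in red and wild type in blue, with the fitted line dashed. The upper row falls with gIC50 (slopes -0.89, -0.52 and -0.63) and the lower row climbs (0.71, 0.42 and 0.40).

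Of the 12 genes of lowest p with a positive slope, none apart from EEF2KMT passed the adjusted threshold. CDT1 and RFC5 belong to the DNA replication list and AURKB to the mitosis list. CDT1, which loads the MCM helicase at replication origins, had log2 fold changes of -1.10 in Pfeiffer, -0.27 in WSU-DLCL2 and -0.67 in KARPAS-422, then -0.22 in SU-DHL-10, -0.24 in HT, -0.25 in SU-DHL-6, -0.21 in DB, -0.16 in OCI-LY-19, 0.10 in SU-DHL-4 and 0.10 in Toledo. Its slope was 0.42 ± 0.07 (limma adjusted p = 0.182), and it fell by the within-line test in 2 lines, Pfeiffer and KARPAS-422. The CDT1 arrays of Pfeiffer read 10.95 and 10.84 under GSK126, against 12.05 and 11.95 under DMSO, and those of Toledo read 11.57 and 11.55 under GSK126, against 11.52 and 11.41 under DMSO. The loss in Pfeiffer is thus well clear of the spread between arrays, and the small difference in Toledo did not pass.

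CHEK1, the kinase that halts the cycle at stalled forks, had a slope of 0.53 ± 0.10, with fold changes of -1.47 in Pfeiffer, -0.88 in WSU-DLCL2 and -1.07 in KARPAS-422, then -0.28 in SU-DHL-10, -0.70 in HT and -0.11 to -0.24 in the other 5 lines. It fell by the test in 5 lines. AURKB, the kinase of the chromosomal passenger complex, fell in 6 lines, by 0.88 in Pfeiffer, 0.61 in WSU-DLCL2 and 0.67 in KARPAS-422, then 0.45 in SU-DHL-10, 0.45 in HT and 0.28 in SU-DHL-6 on the log2 scale, and had values of -0.02, 0.12, -0.14 and 0.14 in the 4 lines of highest gIC50 (slope 0.40 ± 0.08). DTL, the substrate receptor that directs CDT1 to degradation, fell in 7 lines (slope 0.35 ± 0.07). NCAPH, a condensin subunit, ZNF367, a zinc finger factor, RFC5, a clamp loader subunit, MCMBP, which binds the MCM complex, TRUB1, a tRNA pseudouridine synthase, and ACYP1, an acylphosphatase, had slopes of 0.29 to 0.42. SDR42E1, a dehydrogenase, had a slope of 0.73 with its highest values in SU-DHL-4 (0.89) and Toledo (1.72), and its second probe set gave -0.22. Another probe set of RFC5 also disagreed, at -0.07.

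**Figure D3:**
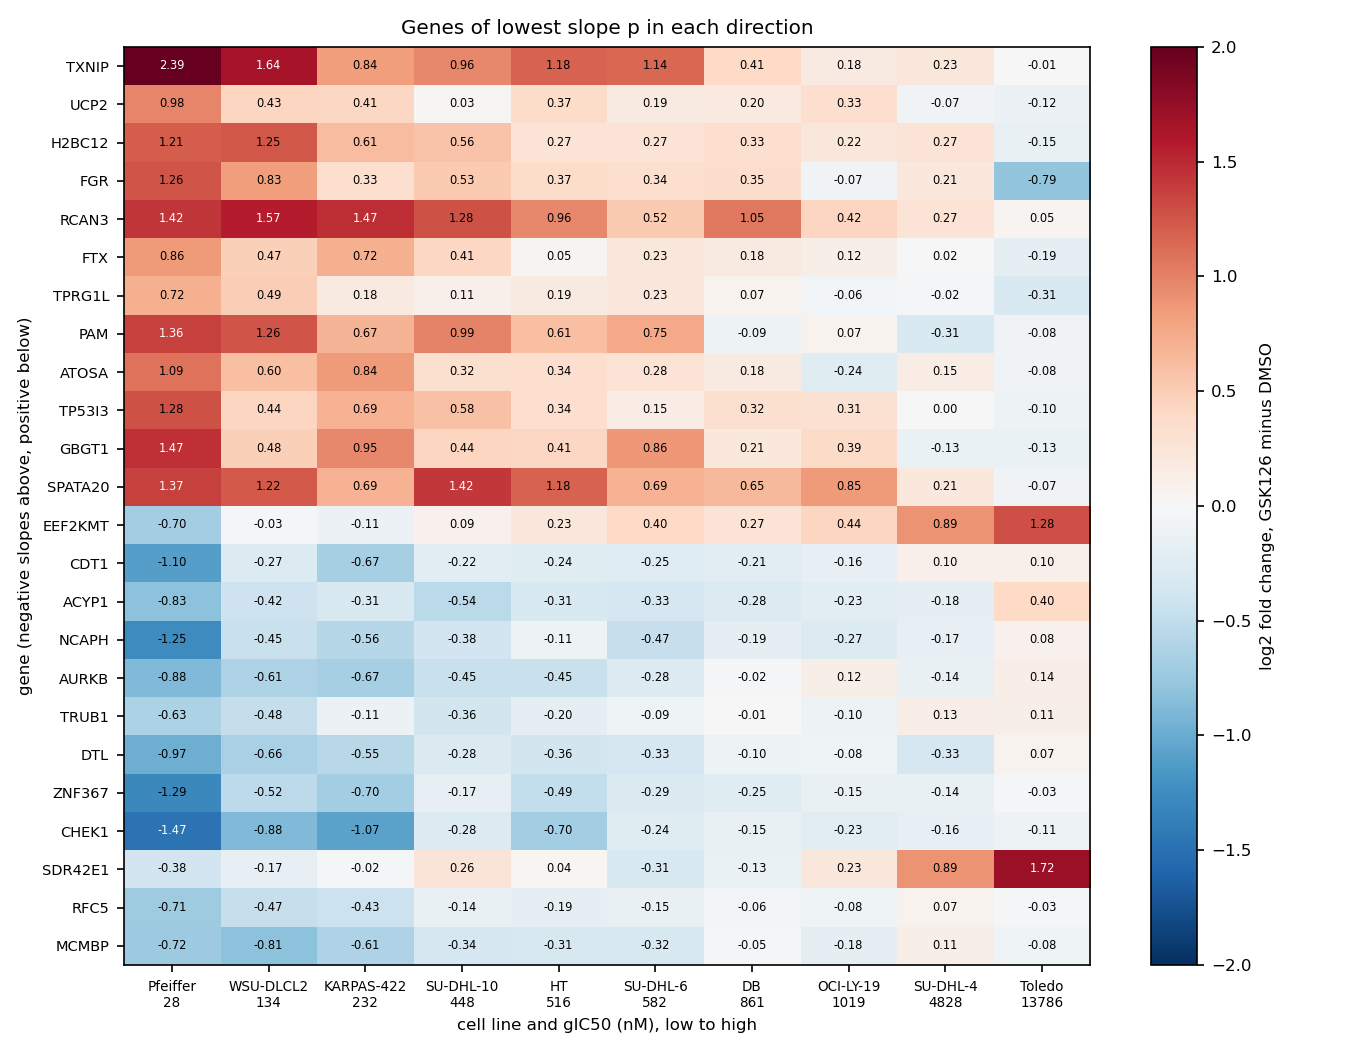
Log2 fold change (GSK126 minus DMSO, number and colour, colours saturating at 2.0) of the 12 genes of lowest p with a slope below 0, above, and the 12 with a slope above 0, below, in the 10 lines ordered by gIC50. Red fades from left to right in the upper block and blue in the lower, and EEF2KMT and SDR42E1 turn red only at the right. The genes were chosen by their slopes, so the fading follows in large part from the choice.

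All 37 measured genes of the DNA replication list had a slope above 0, with a median of 0.28, against -0.01 over all genes tested, and 33 of the 37 (89.2%) had one at an unadjusted p under 0.05, against 5.29% of all genes. No member passed the adjusted threshold. The lowest p after CDT1 and RFC5 was that of CDC6, the loader of the MCM helicase alongside CDT1, with a slope of 0.38 ± 0.08 and fold changes of -0.91 in Pfeiffer, -0.85 in WSU-DLCL2 and -0.73 in KARPAS-422, then -0.22 in SU-DHL-10, -0.68 in HT, -0.24 in SU-DHL-6, -0.20 in DB, -0.15 in OCI-LY-19, -0.04 in SU-DHL-4 and -0.08 in Toledo. By the within-line test, genes of the list that fell numbered 37 in Pfeiffer, 25 in WSU-DLCL2 and 35 in KARPAS-422, then 10 in SU-DHL-10, 16 in HT, 8 in SU-DHL-6 and 2 in SU-DHL-4, and 0 in DB, OCI-LY-19 and Toledo. Over all genes the share that fell was 9.93% in Pfeiffer, 12.7% in WSU-DLCL2 and 13.4% in KARPAS-422, then 7.16% in SU-DHL-10, 3% in HT, 3.56% in SU-DHL-6, 0.618% in DB, 0.44% in OCI-LY-19, 0.454% in SU-DHL-4 and 0.0263% in Toledo. Setting the arrays to equal medians moved the median fold change of all genes to -0.17 in SU-DHL-10, against 0.06 as deposited, and gave 29 fallen replication genes there and 28 in SU-DHL-6. Relative to that shift the list median in SU-DHL-10 was -0.20, against -0.18 as deposited, and all 37 slopes stayed above 0. HT, wild type for EZH2, had a list median of -0.25 as deposited, beside -0.12 in SU-DHL-10 and -0.16 in SU-DHL-6, the mutant lines nearest to it in gIC50. With equal medians 13 replication genes fell in HT, fewer than in those 2 lines, so the order by count depends on the scaling. Relative to all genes the list median was then -0.28 in HT, -0.20 in SU-DHL-10 and -0.21 in SU-DHL-6. The difference between these lines was not tested.

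These counts depended on the lines at the ends of the gIC50 range. Without Pfeiffer, 19 replication genes had a slope above 0 at an unadjusted p under 0.05, and without both Pfeiffer and Toledo 8 did, with 36 of 37 slopes above 0. Over all 15211 genes, the background for both lists here, the counts were 616 without Pfeiffer and 497 without both. The mitosis list had 33 of 34 slopes above 0 (median 0.18) and 23 (67.6%) at an unadjusted p under 0.05, a count of 5 without Pfeiffer and 2 without both lines. Its leading genes were AURKB, FOXM1, the transcription factor of late cell cycle genes (slope 0.30 ± 0.07, -1.0 in Pfeiffer and -0.06 in Toledo), and SPC25, a kinetochore subunit (slope 0.33 ± 0.07, -0.95 in Pfeiffer and 0.06 in Toledo). Mitosis genes that fell numbered 32 in Pfeiffer, 17 in WSU-DLCL2 and 22 in KARPAS-422, then 12 in SU-DHL-10, 9 in HT and 2 in SU-DHL-6, and 0 in the other 4 lines. With equal medians they numbered 28 in WSU-DLCL2 and 30 in KARPAS-422, then 22 in SU-DHL-10, 6 in HT and 10 in SU-DHL-6. All genes that fell under that scaling were not counted. Of the list of G1 cyclins, their kinases, E2F and RB genes, 16 of 20 slopes were above 0 and 6 were so at an unadjusted p under 0.05 (30%, against 5.29% of all genes), led by CDC25A, a phosphatase that activates cyclin-dependent kinases (slope 0.43 ± 0.10), E2F1 (0.29 ± 0.08) and E2F8 (0.31 ± 0.09).

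The promoters of CDT1, CDC6 and SPC25 are shown because E2F and cell cycle homology (CHR) elements are the sites through which genes of the 2 lists are known to be read. E2F letters (TTTNGCGC or GCGGGAA, both strands) occurred in 24 of 33 replication promoters found in the table (72.7%), against 8.16% of all promoters. CHR letters (TTTGAA, both strands) occurred in 18 of 28 mitosis promoters (64.3%), against 15.4% of all, and CCAAT in 20 of 28 (71.4%), against 35.7%. The promoters of both lists are also richer in CpG, with a median observed over expected ratio of 0.943 and 0.945, against 0.58 for all promoters. Capitals mark E2F letters in CDT1, plus strand of chr16:88803539-88803838, and CDC6, plus strand of chr17:40287629-40287928, and mark CHR and CCAAT letters in SPC25, minus strand of chr2:168890381-168890680 (GRCh38.p14, RefSeq, 5′ to 3′).
CDT1: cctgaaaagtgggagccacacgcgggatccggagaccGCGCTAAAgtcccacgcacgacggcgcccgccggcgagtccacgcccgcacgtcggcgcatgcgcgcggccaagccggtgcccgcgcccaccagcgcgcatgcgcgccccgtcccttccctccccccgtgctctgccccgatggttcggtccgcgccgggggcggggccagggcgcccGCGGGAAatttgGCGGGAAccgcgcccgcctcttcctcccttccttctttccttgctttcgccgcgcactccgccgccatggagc
CDC6: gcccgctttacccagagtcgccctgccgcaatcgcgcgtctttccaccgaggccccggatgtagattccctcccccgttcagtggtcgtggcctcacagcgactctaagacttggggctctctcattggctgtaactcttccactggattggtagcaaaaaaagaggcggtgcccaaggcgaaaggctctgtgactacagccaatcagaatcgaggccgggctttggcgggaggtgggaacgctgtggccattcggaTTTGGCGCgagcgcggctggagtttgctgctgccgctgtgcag
SPC25: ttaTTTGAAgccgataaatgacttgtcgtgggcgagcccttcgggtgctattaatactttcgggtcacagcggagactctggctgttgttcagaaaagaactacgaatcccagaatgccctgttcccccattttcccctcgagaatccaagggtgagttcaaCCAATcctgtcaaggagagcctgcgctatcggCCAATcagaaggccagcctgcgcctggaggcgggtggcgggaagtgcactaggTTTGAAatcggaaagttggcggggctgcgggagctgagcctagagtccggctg

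**Figure D4:**
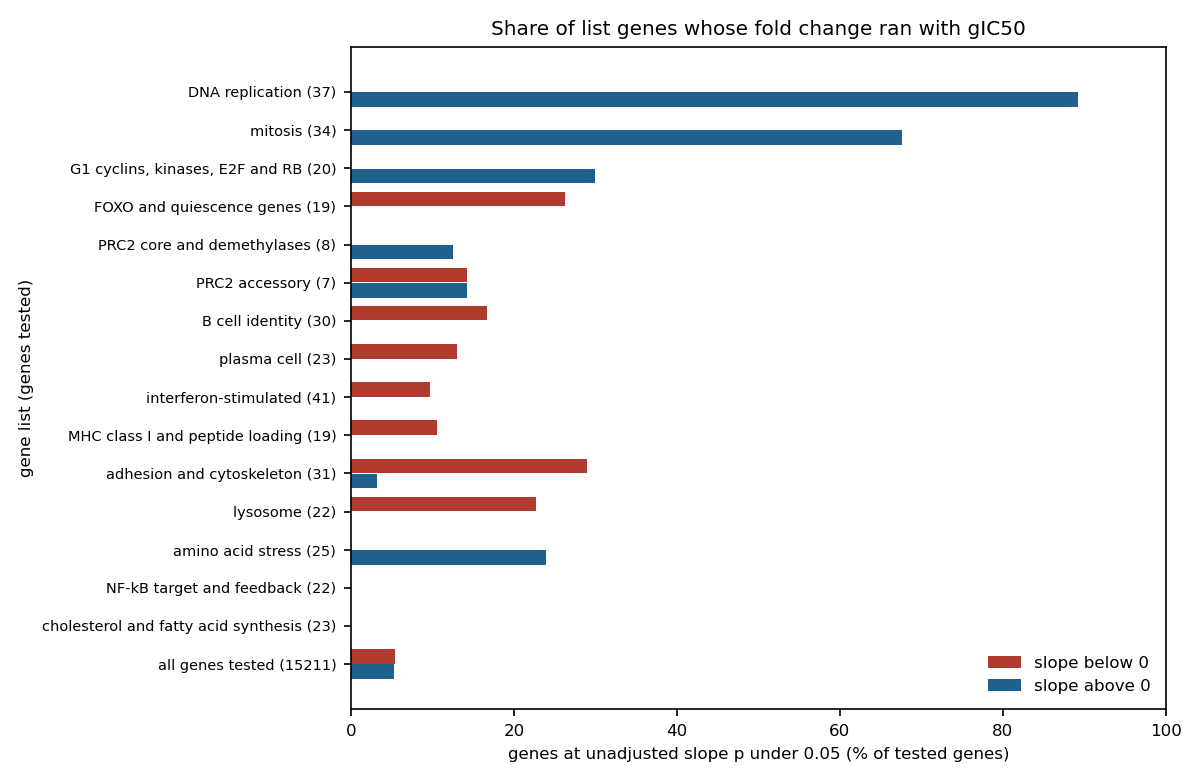
Percent of the tested genes of the 15 described lists with a slope below 0 (red) or above 0 (blue) at an unadjusted p under 0.05, with the number of genes tested in brackets and all 15211 genes at the bottom. DNA replication (89.2%) and mitosis (67.6%) stand far to the right of all genes (5.29%), and none of the other lists drawn exceeds 30%.

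Genes of the FOXO and quiescence list moved the other way on the slope, with 16 of 19 below 0 (median -0.15), against 53.6% of all genes, and 5 at an unadjusted p under 0.05 (26.3%), against 5.44% of all genes. TXNIP led it, followed by SESN3, a sestrin that restrains mTORC1 (slope -0.95 ± 0.22), and CCNG2, an atypical cyclin of resting cells (-0.42 ± 0.13). SESN3 fell into 2 levels of response. It rose in all 7 lines up to a gIC50 of 861 nM, with log2 fold changes of 1.87 in Pfeiffer, 2.05 in WSU-DLCL2 and 2.42 in KARPAS-422, then 1.72 in SU-DHL-10, 1.66 in HT, 2.08 in SU-DHL-6 and 1.40 in DB. It was 0.19 in OCI-LY-19, -0.03 in SU-DHL-4 and 0.08 in Toledo, none of which passed. SU-DHL-4 and Toledo already had high SESN3 under DMSO (11.26 and 11.10 in SU-DHL-4, 10.21 and 10.14 in Toledo), whereas OCI-LY-19 was low under both treatments (5.00 and 5.55 under GSK126, 4.41 and 5.76 under DMSO).

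Interferon-stimulated genes had 40 of 41 slopes below 0 (median -0.33) and 4 at an unadjusted p under 0.05 (9.76%, against 5.44% of all genes), among them IFITM2 (slope -0.67 ± 0.28), IRF9 (-0.33 ± 0.14) and ISG15 (-0.27 ± 0.12). The list median was 2.77 in KARPAS-422, where 40 of 41 genes rose, compared with 15.5% of all genes. It was 0.38 in Pfeiffer, the more sensitive line, and 0.25 in WSU-DLCL2. Genes of MHC class I and peptide loading also had their highest median in KARPAS-422, 1.01, and 0.25 in Pfeiffer, and 2 of 19 slopes below 0 at an unadjusted p under 0.05 (10.5%), B2M (-0.12 ± 0.04) and HLA-E (-0.38 ± 0.17).

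Adhesion and cytoskeleton genes had 25 of 31 slopes below 0 (median -0.18), 9 of them at an unadjusted p under 0.05 (29.0%, against 5.44% of all genes) and 1 above 0. ANXA2, a membrane-binding annexin, rose in 6 lines, with fold changes of 0.87 in Pfeiffer, 1.28 in WSU-DLCL2 and 1.05 in KARPAS-422, then 0.77 in SU-DHL-10, 0.50 in HT and 0.44 in SU-DHL-6, and lay between -0.16 and 0.22 in the rest (slope -0.46 ± 0.14). ANXA6, another annexin, had 2.08 in Pfeiffer with no other line passing, and its slope of -0.68 ± 0.21 became 0.04 without Pfeiffer and Toledo. A dimmer probe set of ANXA6 (mean log2 level 6.73, against 10.97) had a slope of 0.12. TMSB10, an actin-binding thymosin, had a slope of -0.30 ± 0.10.

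B cell identity genes had 26 of 30 slopes below 0 (median -0.14) and 5 at an unadjusted p under 0.05 (16.7%, against 5.44% of all genes). BCL11A, a lymphoid transcription factor, rose in 4 lines (slope -0.29 ± 0.07), FCRLA, an intracellular Fc receptor-like protein, rose in Pfeiffer alone (slope -0.32 ± 0.09), and EBF1, a founder factor of the B lineage, had 1.45 in Pfeiffer and -0.51 in SU-DHL-10 (slope -0.40 ± 0.16). Of the plasma cell list 17 of 23 slopes were below 0 and 3 were so at an unadjusted p under 0.05 (13.0%), those of SSR4, TENT5C and MZB1, genes of the secretory route and of antibody-producing cells. TENT5C had 3.74 in Pfeiffer and 1.61 in KARPAS-422. Lysosomal genes were split in sign, 12 of 22 below 0 with a median of -0.02, yet 5 were below 0 at an unadjusted p under 0.05 (22.7%). PSAP, a precursor of sphingolipid activators, and GAA, the acid glucosidase, rose in 7 lines each and NPC2, a cholesterol carrier, in 8 lines. With equal array medians the genes below 0 at an unadjusted p under 0.05 numbered 5 for adhesion, 2 for B cell identity, 2 for plasma cell, 2 for lysosome, 1 for interferon-stimulated and 0 for MHC class I genes, while those of all genes numbered 395, against 827 as deposited. The median slope of all genes was then 0.03, and that of the adhesion list -0.13, so the lists and all genes shifted together. Of the 22 lysosomal slopes 9 were then below 0.

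Amino acid stress genes, the ATF4 targets of transport and synthesis, had 24 of 25 slopes above 0 (median 0.25) and 6 at an unadjusted p under 0.05 (24%, against 5.29% of all genes). SLC7A1 and SLC7A5, both amino acid transporters, each fell in 6 lines, and SLC7A5 had fold changes of -0.58 in Pfeiffer, -1.25 in WSU-DLCL2 and -0.39 in KARPAS-422, then -0.79 in SU-DHL-10, -0.77 in HT, -0.68 in SU-DHL-6 and -0.26 to -0.02 in the other 4 lines. The list had its lowest median in WSU-DLCL2 (-0.92), where 18 of 25 genes fell, against 12.7% of all genes. It was -0.22 in Pfeiffer, where 7 fell, against 9.93% of all genes. CBS, which makes cystathionine, had a slope of 0.36 ± 0.11 and its highest value in Toledo (0.64), where it did not pass the within-line test.

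EZH2 itself had a slope of 0.23 ± 0.06 (limma adjusted p = 0.235). Its transcript fell by the within-line test in 5 lines, by 0.65 in Pfeiffer, 0.35 in WSU-DLCL2, 0.30 in SU-DHL-10, 0.19 in HT and 0.24 in SU-DHL-6 on the log2 scale. The value was -0.13 in KARPAS-422, -0.03 in DB, 0.07 in OCI-LY-19, -0.06 in SU-DHL-4 and 0.02 in Toledo. Its partners SUZ12 (slope 0.08) and EED (0.09) did not reach an unadjusted p of 0.05. Of the PRC2 accessory genes, JARID2, which helps recruit the complex, had a slope of -0.29 ± 0.11 and AEBP2 one of 0.14 ± 0.05, both at an unadjusted p under 0.05, and PHF1 did not reach it.

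Of 22 NF-kB target and feedback genes and of 23 cholesterol and fatty acid synthesis genes, 0 reached an unadjusted p under 0.05 in either direction in limma, against 10.7% of all genes. Lists this small would hold few genes at that share, so a count of 0 says little about them. Neighbouring lines moved in opposite directions there: 11 cholesterol genes fell in Pfeiffer (9.93% of all genes fell there) and 0 rose, while in WSU-DLCL2 16 rose (13.9% of all genes rose there) and 0 fell. With equal medians 7 rose in WSU-DLCL2, and the share of all genes that rose there under that scaling was not counted. HMGCS1, the enzyme of an early step of cholesterol synthesis, had a fold change of -1.99 in Pfeiffer and 1.48 in WSU-DLCL2. The slope of HMGCS1 was 0.40 by the probe set used and -0.005 by another of nearly the same brightness. LTA, lymphotoxin alpha, fell in 5 lines, with -2.53 in WSU-DLCL2 and -2.90 in KARPAS-422, and had -0.38 in Pfeiffer (slope 0.65 ± 0.35). TNFRSF21, a death receptor, had 2.39 in Pfeiffer and 2.68 in KARPAS-422 but 0.04 in WSU-DLCL2 (slope -0.63 ± 0.34, which did not reach an unadjusted p of 0.05).

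**Figure D5:**
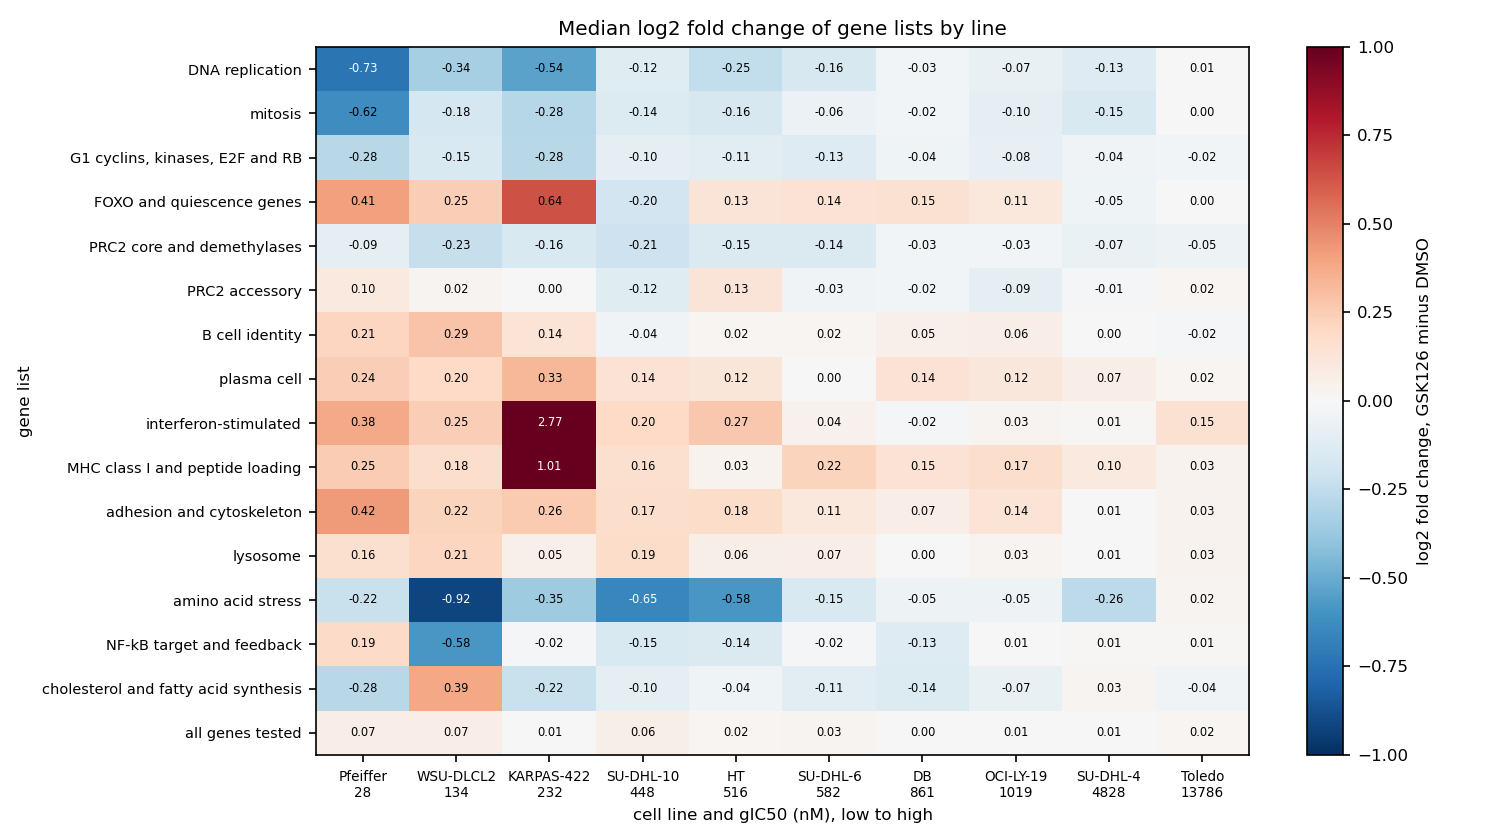
Median log2 fold change (GSK126 minus DMSO, number and colour, colours saturating at 1) of each gene list in the 10 lines ordered by gIC50, with all genes tested in the bottom row. The DNA replication row fades from -0.73 at the left to 0.01 at the right, whereas the interferon-stimulated row peaks in KARPAS-422 (2.77) and the amino acid stress row in WSU-DLCL2 (-0.92).

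Genotype and gIC50 are linked, since the 3 wild type lines lie at 516 nM or above and the 4 most sensitive lines are all mutant. Within the 7 mutant lines 0 genes passed the adjusted threshold in limma, against 1026 at an unadjusted p under 0.05 (6.75%, of which 3.53% below 0 and 3.21% above 0). With genotype as a term 0 passed, against 1118 (7.35%, of which 3.72% below 0 and 3.63% above 0). In the fit of the 7 mutant lines alone, TXNIP had -0.98 ± 0.15, CDT1 0.50 ± 0.11 and EEF2KMT 0.68 ± 0.14, each with a limma adjusted p of 0.73. These lines also entered the choice of the 3 genes. The descriptions carry an unexplained tag, shared by OCI-LY-19 and SU-DHL-6 (R8), by Toledo, KARPAS-422 and Pfeiffer (R6), and by the other 5 lines (R7). With the tag as a term 0 genes passed, against 1488 at an unadjusted p under 0.05 (9.78%, of which 4.85% below 0 and 4.93% above 0), and within the 5 R7 lines 0 passed, against 862 (5.67%, of which 3.21% below 0 and 2.46% above 0). In those 5 lines, which include neither Pfeiffer nor Toledo, 30 of 37 replication slopes were above 0 and 6 were so at an unadjusted p under 0.05. Within the 3 R6 lines, a fit with 1 residual degree of freedom chosen after seeing the data, 0 genes passed, against 304 below 0 (2%) and 230 above 0 (1.51%) at an unadjusted p under 0.05. All 37 replication slopes were above 0 there and 18 were so at that p, and TXNIP had -0.84 ± 0.16. The 2 R8 lines leave no residual degree of freedom and gave no test.

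The level under DMSO alone gave no gene that tracked gIC50. Of the 15211 genes 0 passed in limma, against 1045 at an unadjusted p under 0.05 (6.87%), 622 with lower (4.09%) and 423 with higher (2.78%) DMSO levels in less sensitive lines. Among the 24 genes of lowest p for the response, the lowest adjusted p for the DMSO level was 0.71.

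The size of the whole response did track sensitivity. The SD of log2 fold changes over all genes was 0.467 in Pfeiffer, 0.486 in WSU-DLCL2 and 0.579 in KARPAS-422, then 0.463 in SU-DHL-10, 0.352 in HT, 0.394 in SU-DHL-6, 0.341 in DB, 0.316 in OCI-LY-19, 0.316 in SU-DHL-4 and 0.306 in Toledo. The 4 lines of lowest gIC50 hold the 4 highest values and Toledo the lowest. Over 10 lines Pearson's r with log10 gIC50 was -0.729 (two-sided permutation p = 0.0159) and Spearman's rho was -0.939 (permutation p = 2e-04). Without the 2 lines farthest from the median gIC50, Pfeiffer and Toledo, r was -0.776 (exact permutation p = 0.0218, n = 8), and within the 7 mutant lines it was -0.685 (exact permutation p = 0.0849). With a pseudocount of 1, r was -0.639 (permutation p = 0.0505), and no correlation is given within an R tag, each of which holds at most 5 lines.

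Genes raised almost everywhere also differed in extent. A set of 8 of the 15211 genes rose by the within-line test in 9 lines, with Toledo the exception: ABAT, TSC22D1, MSRB2, HLA-DOA, FAM229B, SMKR1, DSTN and PRKAR2B, whose median slope was -0.29. In Toledo 21 genes rose in all (0.138%), so a gene rising in 9 lines was likely to miss that line. Missing the line of highest gIC50 leans a slope below 0, so the sign of that median follows in part from the choice. ABAT, the GABA transaminase, had log2 fold changes of 2.63 in Pfeiffer, 1.95 in WSU-DLCL2 and 3.75 in KARPAS-422, then 2.35 in SU-DHL-10, 1.38 in HT, 2.03 in SU-DHL-6, 1.22 in DB, 1.01 in OCI-LY-19, 0.56 in SU-DHL-4 and 0.14 in Toledo (slope -1.11 ± 0.25, limma adjusted p = 0.208). PRKAR2B, a regulatory subunit of protein kinase A, had 0.80 in Pfeiffer and 1.33 in SU-DHL-4, and its slope of -0.16 ± 0.19 did not reach an unadjusted p of 0.05. The difference between the slopes of ABAT and PRKAR2B was not tested. These 8 were singled out by that count after the values were seen.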

How the data were processed

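RNA from 10 lymphoma lines was hybridised to 40 one-colour Affymetrix arrays. MAS5 produced the signals, per the submitters' processing notes, which state no version here. The deposited values are log2 signals. Once turned back to linear, each of the 40 arrays averages 500 if 2% of values are trimmed from either end. They were analysed as log2(signal + 17.72), the pseudocount being the median over arrays of the 25th percentile, and fold changes on this scale understate dim genes. All value columns mapped to a sample (0 unmapped).

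Symbols came from the platform annotation, which can be old: 41091 of 54675 probe sets had 1 symbol, 1801 several and 11721 none. Each gene took its brightest single-symbol probe set and was tested if above the array median on at least 2 arrays (15211 of 19775 genes).

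limma 3.58.1 in R 4.3.3 fitted the slope on log10 gIC50 over 10 line values (8 residual and 4.96 prior degrees of freedom, variance trend on mean level). The within-line test used all 40 arrays (20 residual and 6.98 prior degrees of freedom) and measures only the spread between arrays of a line, which may be technical. Tests were two-sided, with Benjamini-Hochberg adjustment over 15211 genes and a threshold of 0.05. Errors are standard errors of the fit. The response size was tested by 100000 permutations for more than 8 lines and exactly otherwise. Promoters came from RefSeq (GRCh38.p14), 300 bases each.

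All lines were used, and the named genes and the lists were chosen with earlier results of these data known. Named are the 12 genes of lowest p in each direction (the rule takes called genes first), 3 genes of lowest p of each described list, and TXNIP, TNFRSF21 and EZH2. In simulated data with 200 of 15211 genes changed, 49% of slopes of 0.5 and 81% of slopes of 1 were called, with 9 false calls. The noise there was normal and independent between genes, and the changed genes were drawn at random. Deviations of a line shared by many genes were thus absent, and these shares need not hold for the measured data. Alternatives covered pseudocount, filter, scaling, probe sets, rank of gIC50, variance model, genotype, R tag, lines and arrays left out, and a replicate block. A line with 1 array left out keeps the other array as its value and counts like the other lines.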

Additional observations from a re-analysis of the deposited data

Results flagged for a closer look

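Among 66 genes examined over the 10 lines, 15 had a line whose log2 fold change lay far from the nearest other line for the range of the gene. Chance flags about 1 in 20 unselected groups, a rate that does not apply to these genes, since many were chosen for their slope and Pfeiffer and Toledo are the ends of the gIC50 range. No cause was tested. In 11 of the 15 the line was Pfeiffer, the most sensitive. There the cell cycle genes NCAPH (-1.25), ZNF367 (-1.29), FOXM1 (-1.0), SPC25 (-0.95) and E2F8 (-1.0) lay far below every other line. TENT5C (3.74), ANXA6 (2.08), FCRLA (1.08), UCP2 (0.98) and PHF1 (0.24) lay far above, and SUZ12 (-0.33) below. Toledo, the least sensitive line, stood above the rest for ACYP1 (0.40) and CBS (0.64), neither of which passed the within-line test there. KARPAS-422 stood above the rest for HLA-E (1.66) and WSU-DLCL2 for TM7SF2 (1.13), a sterol reductase.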

How the results depend on the processing

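Calls at adjusted p under 0.05, 1 gene with the reported settings (EEF2KMT), numbered 2 (1 negative, TXNIP, and 1 positive) with a pseudocount 4 times larger, with quantile normalization and with the mean of probe sets, and 3 with the rank of gIC50 (2 negative, TXNIP and RCAN3, and 1 positive, AURKB). They numbered 0 with no filter, with genotype as a term, in mutant lines only, with the R tag as a term, in R7 lines only, in R6 lines only and without both Pfeiffer and Toledo. With 1 line left out they ranged over 0 to 2 (negative 0 to 1, positive 0 to 1), with 1 array or replicate number left out over 0 to 2 (negative 0 to 1, positive 0 to 1), the highest without KARPAS-422 or without OCI-LY-19, as without the single arrays named for TXNIP.

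A replicate block with 1 correlation shared by all genes (0.356) gave 140 calls, 56 negative and 84 positive. Same-numbered arrays did not deviate together (correlations of -0.0446 to 0.0694 by line), so the numbers do not pair the arrays. The cause of the higher count was not tested.

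At unadjusted p under 0.05, chosen after seeing the data, negative slopes numbered 395 with equal medians, 537 in mutant lines, 488 in R7 lines, 304 in R6 lines and 489 without Pfeiffer and Toledo, and positive ones 489 in mutant lines, 374 in R7 lines, 230 in R6 lines and 497 without both. Leaving out 1 line gave 671 to 1009 negative and 616 to 859 positive, and leaving out arrays or replicates gave 679 to 954 and 685 to 901. DNA replication genes above 0 at that p numbered 6 in R7 lines, 18 in R6 lines, 8 without both lines, 19 to 36 with 1 line left out and 26 to 35 with arrays left out. Mitosis genes numbered 1, 8, 2, 5 to 25 and 17 to 25 in the same order. Replication slopes above 0 stayed at 37 with 1 line or array left out, and mitosis slopes numbered 30 to 33 and 33 to 34, and 21 in R7 lines. The 0 calls in mutant lines, with genotype and for the DMSO level stayed 0 with any 1 line left out.

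The response size had r = -0.639 with a pseudocount of 1 and -0.685 in mutant lines, neither past the threshold, and -0.824 to -0.689 with 1 line left out. Over 66 genes and 4554 values under alternatives, 4470 kept sign and side of the threshold, which for every gene but EEF2KMT means staying short of it. Of the rest 44 newly passed, mostly in the replicate block and otherwise for TXNIP, RCAN3 or AURKB. A further 29 no longer passed (all EEF2KMT) and 11 changed sign. The last were, in R7 lines, TENT5C 0.068, EBF1 0.105, TNFRSF21 0.35, RELA 0.0080 and HMGCS1 -0.63. Without Pfeiffer and Toledo they were ANXA6 0.0394, EBF1 0.0395 and HMGCS1 -0.43, and with 1 line left out HMGCS1 ran over -0.19 (without Pfeiffer) to 0.70 and NSDHL over -0.0032 (without Pfeiffer) to 0.22, and with mean probe sets EED -0.0031. The number of lines and arrays limits the precision.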
